A study of Oncorhynchus mykiss with 14 samples.

Results

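miR-193, miR-365 and miR-455 are microRNAs (miRNAs), small RNAs that lower the output of the mRNAs they pair with, and in mice all of them have been described as promoting brown fat. They were followed here in mature adipocytes, the cells that store fat as lipid droplets, from 3 fat depots of rainbow trout (Oncorhynchus mykiss). All entries of the deposited table whose identifier starts with ssa-miR-193, ssa-miR-365 or ssa-miR-455 were taken, whichever arm of the hairpin they name. These are 7 of the 899 entries, namely ssa-miR-193-5p, ssa-miR-193-3p, ssa-miR-365-3p, ssa-miR-365-2-3p, ssa-miR-365-2-5p, ssa-miR-455-5p and ssa-miR-455-3p. The prefix ssa marks Atlantic salmon names. As several of the 7 carry the same reads, they hold 4 distinct sets of counts, out of 830 distinct sets in the whole table.

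The 14 libraries came from intramuscular fat (IMAT, 5 libraries), subcutaneous fat (SAT, 5 libraries) and visceral fat (VAT, 4 libraries, numbered 1, 3, 4 and 5) of adult trout. All fish were untreated and shared the same conditions, a water temperature of 15 ± 1 °C and days of 12 h light and 12 h dark, and were fasted for 24 h. Per the labels, collagenase type II freed the adipocytes, and their total RNA was extracted with TRIzol. The labels name no strain or sex, and they leave unsaid whether each library is a fish of its own. The p-values therefore measure only how far these libraries spread, which may be technical. No miRNA was used here as a marker that defines adipocytes, so the labelled cell type was not checked against one.

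In mice, miR-193b and miR-365 lie next to each other in the genome and are made together. They were described as being induced through the brown fat regulator Prdm16 and as repressing Runx1t1, an inhibitor of fat cell formation, although mice without the cluster were later reported with ordinary brown fat. miR-455 lies in an intron of the collagen gene Col27a1 in mammals, and in mice it was described as favouring brown fat by lowering Runx1t1, Necdin and Hif1an. Fish are not known to form brown fat, and the targets of these miRNAs in trout were not measured here.

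The libraries held 759369 counts (IMAT 4) to 11843805 counts (IMAT 5) on miRNA entries. The depots differed in the share taken by the muscle miRNAs miR-1, miR-133, miR-206 and miR-499 (9 entries, all above 0 in every depot), which was 65.5 to 89.6% in IMAT, 3.37 to 11.9% in SAT and 0.0888 to 4.65% in VAT. With entries that carry the same reads joined, it was 44.0 to 78.4% in IMAT, 1.52 to 5.56% in SAT and 0.0431 to 1.94% in VAT. Levels are therefore given on 2 scales below. The first is CPM (counts per 1000000 counts of the library) after TMM scaling, which sets the libraries level on the bulk of their entries. The second, called non-muscle CPM, divides by the counts outside the muscle entries. In bulk samples, fewer cells of a type and less RNA per cell cannot be told apart.

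Which reads stand behind each entry came first. ssa-miR-193-5p and ssa-miR-193-3p held the same counts in all 14 libraries, and so did ssa-miR-455-5p and ssa-miR-455-3p, so each pair is 1 miRNA here and its arm is uncertain. ssa-miR-365-3p and ssa-miR-365-2-3p held the same counts in the 9 libraries where both were above 0. In the other 5 libraries (IMAT 4, IMAT 5, SAT 2, SAT 5 and VAT 3) ssa-miR-365-2-3p was listed at 0 while ssa-miR-365-3p held 318 to 20997 reads. A 0 of that kind is not read as absence, and miR-365 below means ssa-miR-365-3p. All 7 entries were above 0 in at least 4 libraries, the filter that 327 entries passed.

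miR-365 was by far the most abundant of the miRNAs and the one that set the depots apart: it was lower in IMAT than in both other depots. It held 1756, 710, 1088, 318 and 10101 reads in IMAT 1 to 5. In SAT 1 to 5 it held 26106, 20997, 18702, 19610 and 12647 reads, and in VAT 1, 3, 4 and 5 it held 36081, 18162, 94925 and 30417 reads. IMAT 5, with the highest total of all libraries, still held fewer miR-365 reads than any library of SAT or VAT. Muscle miRNAs took 65.5% of that total, however. The counts of IMAT 5 outside muscle were 4082633, below every VAT library (lowest 4315466, VAT 3) and above every SAT library (highest 3631405, SAT 5).

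On the TMM scale miR-365 stood at 1107, 532, 815, 497 and 1235 CPM in the IMAT libraries. The SAT libraries had 7478, 4843, 4122, 4442 and 2268 CPM, and the VAT libraries 6227, 2079, 9315 and 1803 CPM. Every IMAT library lay below every SAT and every VAT library. The means were 837 ± 332 CPM in IMAT (SD, n = 5), 4631 ± 1873 in SAT (n = 5) and 4856 ± 3596 in VAT (n = 4). VAT was the least even depot, with VAT 4 and VAT 1 above VAT 3 and VAT 5, and its coefficient of variation was 74.1%, against 39.6% within IMAT and 40.4% within SAT.

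Between IMAT and VAT the log2 fold change of miR-365 was -2.54 ± 0.53 with its standard error (SE), and the quasi-likelihood test of edgeR gave a Benjamini-Hochberg adjusted p = 0.0048 over all 327 entries. The level was thus 5.80 times lower, and the 95% interval of the log2 value ran from -3.67 to -1.40. Between IMAT and SAT it was -2.47 ± 0.51 (edgeR adjusted p = 0.0089, interval -3.57 to -1.37), or 5.53 times lower. SAT and VAT shared nearly the same mean, their log2 fold change being -0.07 ± 0.51 (adjusted p = 0.97 in edgeR), and the interval of -1.17 to 1.04 leaves room for a change in either direction. The comparisons share libraries and are not independent of each other.

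miR-365 was the 1 entry of the 7 that was called at an adjusted p under 0.05 in IMAT against VAT, where 13.5% of all tested entries were called (7.65% higher and 5.81% lower in IMAT). It was also the 1 entry of the 7 called in IMAT against SAT, where 6.73% were called (3.67% higher and 3.06% lower). The median log2 fold change of all entries was -0.60 in IMAT against VAT and -0.43 in IMAT against SAT. Relative to these medians miR-365 stood at -1.94 and -2.04 in the same 2 comparisons. None of the 7 was called in SAT against VAT, where 12.5% of all entries were (7.34% higher and 5.2% lower in SAT). There, 0 of the 7 had an unadjusted p under 0.05, against 24.8% of all entries. DESeq2 called 0 of the 7, beside 7.34% of all entries called higher and 11.9% lower. In limma it was also 0, beside 11.3% higher and 5.5% lower (log2 of CPM plus 1). An unadjusted p under 0.05 was met by 33.9% of all entries in IMAT against VAT and by 25.7% in IMAT against SAT. The libraries of the compared depots did not overlap for 15.0% of all entries in IMAT against VAT, 16.2% in SAT against VAT and 18.7% in IMAT against SAT, and miR-365, on TMM-scaled CPM, was among these in both comparisons with IMAT.

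The size of the miR-365 difference moved with the scaling. With library totals as the only scaling the log2 fold change was -3.89 in IMAT against VAT and -3.83 in IMAT against SAT. Scaled by non-muscle totals it was -1.57 and -1.62 in the same comparisons. The call held under all 26 alternatives in each comparison, with edgeR, DESeq2 or limma adjusted p of 1.4e-06 to 0.0436 in IMAT against VAT and 3.04e-05 to 0.0459 in IMAT against SAT. Without VAT 4, its highest library, the log2 fold change from VAT was -1.76 (edgeR adjusted p = 0.011).

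**Figure D1:**
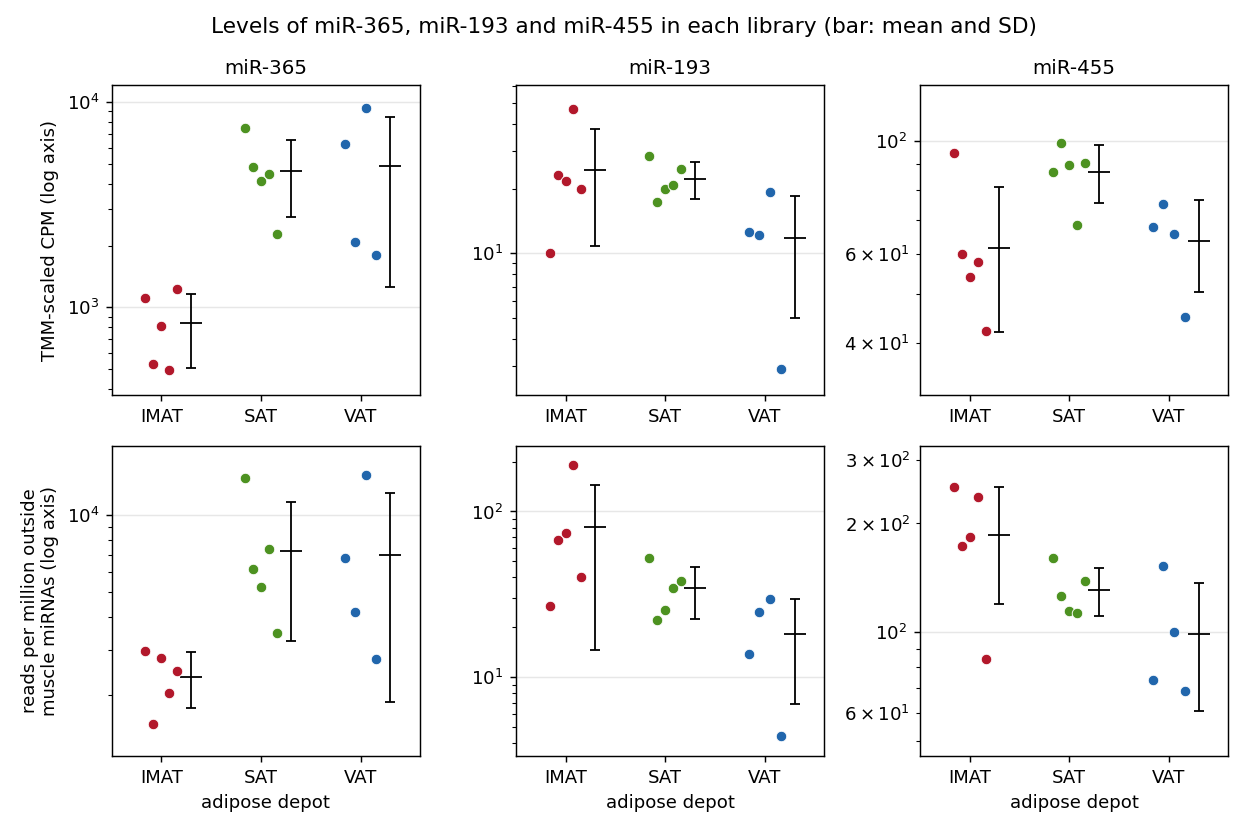
Levels of miR-365, miR-193 and miR-455 in each library (points), by depot on the horizontal axis, as TMM-scaled CPM (upper row) and as non-muscle CPM (lower row), all on log axes, with bars for the mean and SD. In the upper row the miR-365 points of IMAT (497 to 1235 CPM) all lie below those of SAT and VAT, while the points of miR-193 and miR-455 overlap between IMAT and each of the other depots.

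On the second scale miR-365 stood at 2954, 1542, 2771, 2035 and 2474 non-muscle CPM in IMAT 1 to 5. The SAT libraries had 13845, 6146, 5251, 7359 and 3483, and the VAT libraries 6787, 4209, 14253 and 2750. Here all IMAT libraries were still below all SAT libraries, but IMAT 1 and IMAT 3 lay above VAT 5. The means were 2355 ± 572 non-muscle CPM in IMAT, 7217 ± 3966 in SAT and 6999 ± 5116 in VAT.

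Rank within a library does not depend on the library total. Among 213 distinct named miRNAs, ordered by reads, miR-365 ranked 44, 48, 45, 45 and 39 in IMAT 1 to 5. It ranked 17, 19, 20, 17 and 27 in SAT and 15, 21, 12 and 24 in VAT. No rank in IMAT reached those of the other depots. The median rank of miR-193 was 102 in IMAT, 110 in SAT and 123 in VAT, and miR-455 ranked 75 to 91 in IMAT, 73 to 78 in SAT and 75 to 88 in VAT, so the ranks of these overlapped between depots.

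**Figure D2:**
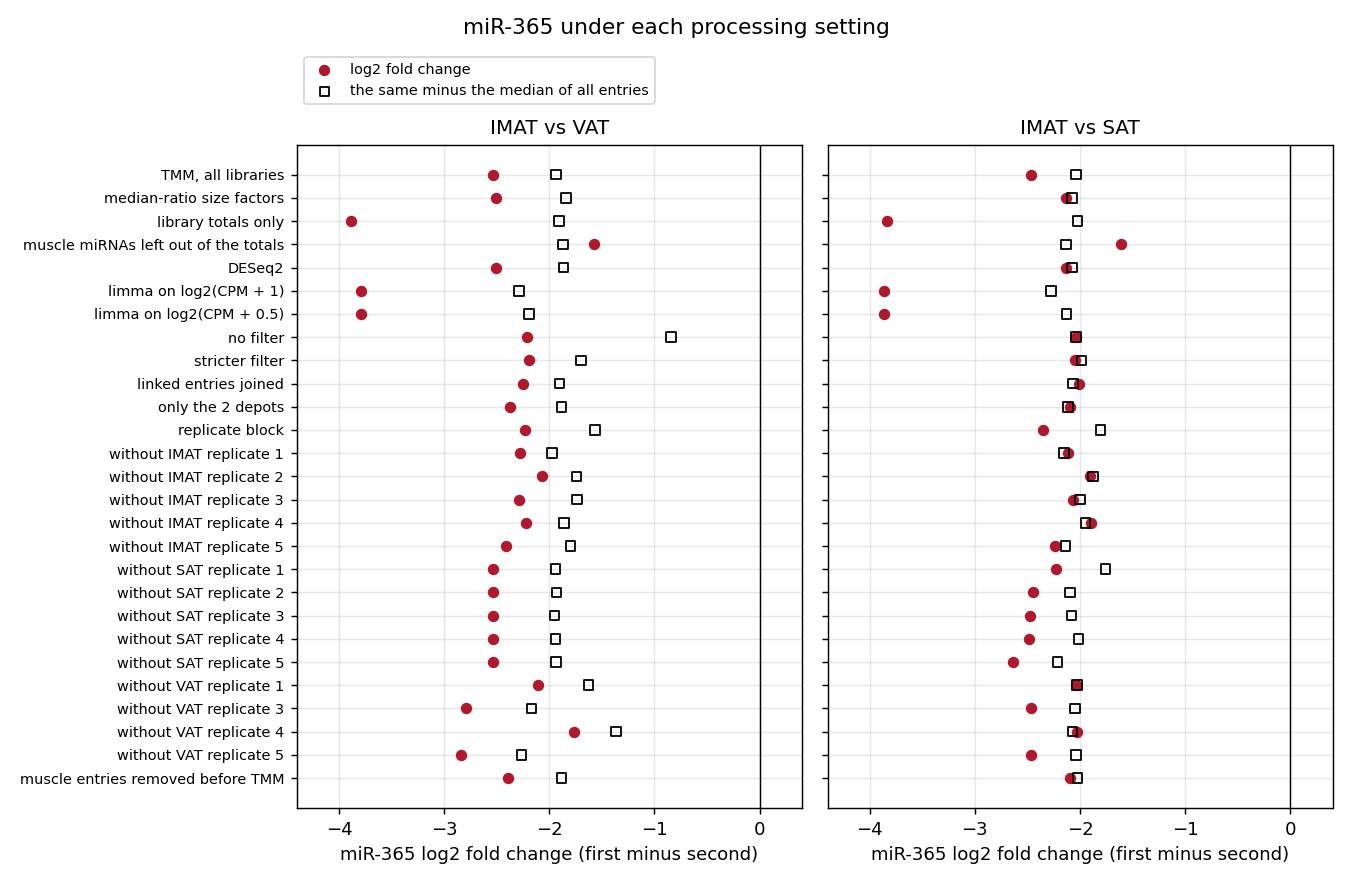
Log2 fold change of miR-365 (horizontal axis, first depot minus second) for IMAT against VAT and IMAT against SAT under each processing setting (rows), as fitted (filled points) and after subtracting the median of all entries under that setting (open squares). The filled points and the squares lie below 0, the filled points from -3.89 to -1.57 in IMAT against VAT and from -3.86 to -1.62 in IMAT against SAT.

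miR-193, the partner of miR-365 in the mouse cluster, was a low-abundance miRNA and was not called lower in IMAT. It held 16, 31, 29, 30 and 164 reads in IMAT 1 to 5. SAT libraries held 99, 75, 91, 92 and 138 reads, and VAT libraries 73, 107, 198 and 49. These small counts limit the precision of every value for this miRNA.

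Scaled by TMM, miR-193 stood at 10.1, 23.2, 21.7, 46.9 and 20.1 CPM in IMAT, at 28.4, 17.3, 20.1, 20.8 and 24.7 CPM in SAT and at 12.6, 12.2, 19.4 and 2.90 CPM in VAT. IMAT 4 was the highest and VAT 5 the lowest of all libraries, and IMAT overlapped with both other depots. The means were 24.4 ± 13.6 CPM in IMAT (SD, n = 5), 22.3 ± 4.33 in SAT (n = 5) and 11.8 ± 6.79 in VAT (n = 4). SAT was the most even depot, with a coefficient of variation of 19.4%, against 55.7% in IMAT and 57.5% in VAT.

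miR-193 passed the threshold in none of the 3 comparisons. Its log2 fold change was 1.04 ± 0.56 in IMAT against VAT (edgeR adjusted p = 0.21, 95% interval -0.17 to 2.25). It was 0.92 ± 0.56 in SAT against VAT (edgeR adjusted p = 0.38, interval -0.29 to 2.12) and 0.12 ± 0.52 in IMAT against SAT (edgeR adjusted p = 0.89, interval -0.997 to 1.24). The intervals leave room for a change of more than a doubling in at least 1 direction.

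The direction of miR-193 in IMAT turned with the scaling. With library totals only, its log2 fold change was -0.25 in IMAT against VAT and -1.09 in IMAT against SAT, beside medians of all entries of -1.98 and -1.81. Scaling by non-muscle totals gave 2.12 in IMAT against VAT (edgeR adjusted p = 0.0447). Under that setting 17.4% of all entries were called higher and 1.83% lower, and the median of all entries was 0.30. The IMAT libraries stood at 26.9, 67.3, 73.9, 191.9 and 40.2 non-muscle CPM. SAT libraries had 52.5, 22.0, 25.5, 34.5 and 38.0, and VAT libraries 13.7, 24.8, 29.7 and 4.43. On that scale only IMAT 1 lay within the range of VAT.

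miR-455 lay between the others in abundance and had the lowest coefficient of variation within each depot on the TMM scale. It held 150, 80, 72, 37 and 345 reads in IMAT, 303, 430, 407, 302 and 504 reads in SAT and 393, 658, 669 and 760 reads in VAT. With TMM scaling it stood at 94.5, 59.96, 53.9, 57.9 and 42.2 CPM in IMAT 1 to 5. SAT libraries had 86.8, 99.2, 89.7, 68.4 and 90.4 CPM, and VAT libraries 67.8, 75.3, 65.7 and 45.0 CPM. IMAT 1 stood among the SAT libraries, and the other 4 IMAT libraries lay below all of SAT.

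The means of miR-455 were 61.7 ± 19.6 CPM in IMAT (SD, n = 5), 86.9 ± 11.3 in SAT (n = 5) and 63.5 ± 12.95 in VAT (n = 4). The log2 fold change was -0.04 ± 0.32 in IMAT against VAT (edgeR adjusted p = 0.94, 95% interval -0.73 to 0.64). It was 0.45 ± 0.32 in SAT against VAT (edgeR adjusted p = 0.49, interval -0.24 to 1.14) and -0.49 ± 0.30 in IMAT against SAT (edgeR adjusted p = 0.34, interval -1.14 to 0.15).

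The scaling decided whether miR-455 was called in IMAT. With library totals only, its log2 fold change was -1.56 in IMAT against VAT (adjusted p = 0.0062 in edgeR) and -1.87 in IMAT against SAT (adjusted p = 0.0018). The median of all entries was then -1.98 and -1.81, with 44% and 37.9% of all entries called lower. With limma on deposited CPM miR-455 passed as well, where 48.9% and 50.5% of all entries were called lower (CPM plus 1). Scaled by non-muscle totals the miR-455 values were 0.91 and 0.51 in the same comparisons and did not pass. The medians of all entries were then 0.30 and 0.52. In non-muscle CPM the IMAT libraries stood at 252, 174, 183.4, 237 and 84.5, the SAT libraries at 161, 125.9, 114, 113 and 139, and the VAT libraries at 73.9, 152, 100.4 and 68.7. There, 4 of the 5 IMAT libraries were above all of SAT and VAT, and IMAT 5 was the exception.

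**Figure D3:**
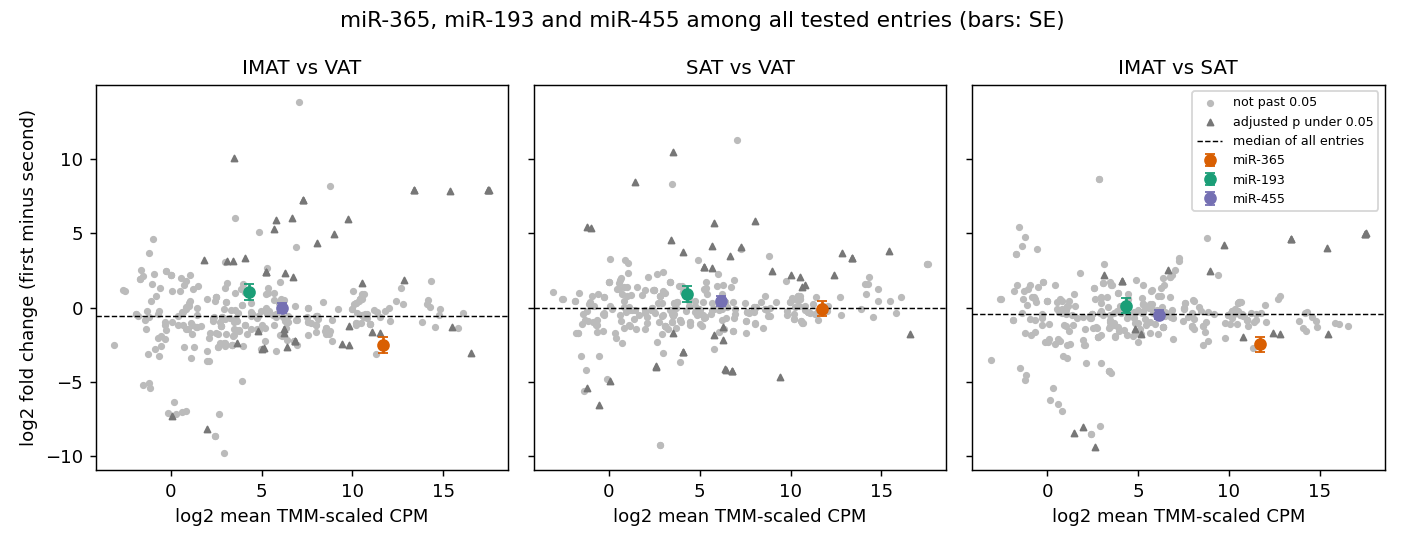
Log2 fold change (vertical axis, first depot minus second) against log2 mean TMM-scaled CPM (horizontal axis) of all 327 tested entries in each comparison, with miR-365, miR-193 and miR-455 in colour and bars for their SE. miR-365 lies at -2.54 and -2.47 in the comparisons of IMAT with VAT and with SAT, below the dashed median of all entries (-0.60 and -0.43), and miR-193 and miR-455 lie near or above that line.

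Ratios within a library do not depend on its total or on how the muscle miRNAs enter the scaling. Reads of these miRNAs from muscle RNA would still count in the ratios, and their part was not tested. Reads of miR-365 over reads of miR-193 came to 109.8, 22.9, 37.5, 10.6 and 61.6 in IMAT 1 to 5. In SAT the ratios were 263.7, 280, 205.5, 213.2 and 91.6, and in VAT 494.3, 169.7, 479.4 and 620.8. IMAT lay below VAT with no overlap, and IMAT 1 reached above SAT 5.

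On the log2 scale the ratio of miR-365 to miR-193 averaged 5.15 ± 1.29 in IMAT (SD, n = 5), 7.61 ± 0.64 in SAT (n = 5) and 8.63 ± 0.83 in VAT (n = 4). The log2 difference of IMAT from VAT was -3.47, or 11.1 times lower (two-sided exact permutation test, p = 0.0159, Benjamini-Hochberg adjusted p = 0.0238 over the 3 comparisons). That of IMAT from SAT was -2.46, or 5.51 times lower (exact p = 0.0159, adjusted p = 0.0238). SAT stood at -1.01 relative to VAT and did not pass (exact p = 0.0873, adjusted p = 0.0873). Of the 14 runs with a library left out, 1 passed, that without VAT 3, at -1.42 (exact test, adjusted p = 0.0179). A ratio within a library shows that its members moved unequally and not which of them changed.

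The other ratios are given as values with no test. Reads of miR-365 over miR-455 came to 8.6 to 29.3 in IMAT, 25.1 to 86.2 in SAT and 27.6 to 141.9 in VAT, so that IMAT 5 alone reached into SAT and VAT. Reads of miR-455 over miR-193 came to 1.23 to 9.38 in IMAT, 3.06 to 5.73 in SAT and 3.38 to 15.5 in VAT. These overlapped in every pair of depots, with means on the log2 scale of 1.44 ± 1.06 in IMAT, 1.97 ± 0.37 in SAT and 2.68 ± 0.92 in VAT.

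**Figure D4:**
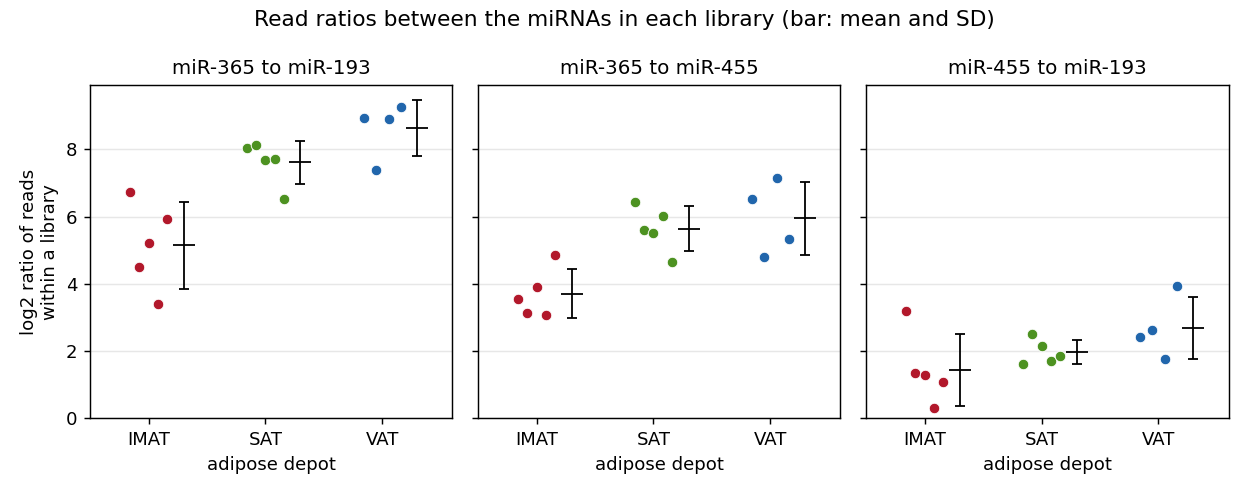
Log2 ratio of reads within each library (vertical axis, points) for miR-365 to miR-193, miR-365 to miR-455 and miR-455 to miR-193, by depot, with bars for the mean and SD. The ratio of miR-365 to miR-193 averages 5.15 in IMAT, 7.61 in SAT and 8.63 in VAT, and that of miR-455 to miR-193 overlaps between all depots.

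Taken as a sum with shared reads counted once, miR-193, miR-365 and miR-455 made up 0.324, 0.179, 0.303, 0.246 and 0.260% of the counts outside muscle in IMAT 1 to 5. The counts divided by are those deposited, where reads shared by entries count in each of them. In SAT the share was 1.41, 0.629, 0.539, 0.751 and 0.366%, and in VAT 0.688, 0.439, 1.44 and 0.282%. miR-365 supplied 82.6 to 95.2% of this sum in IMAT, 95.2 to 98.5% in SAT and 96.0 to 99.1% in VAT, so the sum follows that miRNA. Of all counts, muscle included, the sum was 0.0186 to 0.0896% in IMAT, 0.346 to 1.29% in SAT and 0.282 to 1.44% in VAT.

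The other arm of the miR-365-2 hairpin, ssa-miR-365-2-5p, was close to the limit of detection. It was read in the same 9 libraries as ssa-miR-365-2-3p, with 1 to 4 reads in each, and was listed at 0 in the other 5. Summed over these libraries it had 7 reads beside 3554 of the 3p arm in IMAT (3 libraries), which is 0.197% (exact Clopper-Pearson 95% interval 0.0791 to 0.405%). In SAT (3 libraries) it had 7 beside 64418, or 0.0109% (0.00437 to 0.0224%), and in VAT (3 libraries) 8 beside 161423, or 0.00496% (0.00214 to 0.00976%). The 9 libraries are by choice those with at least 1 read of the 5p arm, and counts of 1 to 4 are too low to compare depots. The percentages are therefore not read as a difference between depots. The intervals cover counting error only, because reads of an amplified library are not independent molecules.

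As deposited, with its zeros, ssa-miR-365-2-3p did not pass in any comparison. Its log2 fold change was -3.14 ± 2.59 in IMAT against VAT (edgeR adjusted p = 0.43), -0.43 ± 2.46 in SAT against VAT (0.95) and -2.71 ± 2.48 in IMAT against SAT (0.55). The standard errors are those of an entry that jumps between 0 and high read counts within a depot, and the same reads under the name ssa-miR-365-3p passed in both comparisons with IMAT. ssa-miR-365-2-5p stood at 2.27 ± 1.41, 0.76 ± 1.32 and 1.52 ± 1.33 in the same order of comparisons (edgeR adjusted p = 0.28, 0.83 and 0.54).

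The named miRNAs whose level over the 14 libraries was most like that of miR-365 were miR-130a-5p, with a Spearman rho of 0.94 (Pearson r = 0.90), miR-205a-5p (rho = 0.92) and miR-205a-3p (rho = 0.91), out of 184 distinct named miRNAs compared. The mean of miR-130a-5p was 118 ± 39.2 CPM in IMAT, 297 ± 84.3 in SAT and 364 ± 392 in VAT. That of miR-205a-5p, known from skin and other epithelia, was 10.5 ± 6.69 CPM in IMAT, 40.4 ± 7.10 in SAT and 29.4 ± 24.2 in VAT. All 3 have, like miR-365, their lowest mean in IMAT, which is largely set in advance by picking them for likeness to miR-365. None of them was called in IMAT against VAT, with edgeR adjusted p of 0.068 (miR-130a-5p), 0.107 (miR-205a-5p) and 0.068 (miR-205a-3p). In IMAT against SAT only miR-205a-3p was called (edgeR adjusted p = 0.032), and miR-130a-5p and miR-205a-5p were not (0.130 and 0.071). Another miR-205 entry, miR-205b-5p, was higher in IMAT than in VAT, by 3.16 in log2 units (adjusted p = 0.020 in edgeR). The likenesses are descriptions over points that share libraries and scaling.

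For miR-193 the likeness was lower: miR-212b-5p came first with a rho of 0.78 (r = 0.64), then miR-205b-5p with 0.66 and miR-203a-2-3p with 0.60. The level of miR-212b-5p was low, with means of 2.56 CPM in IMAT, 1.88 in SAT and 0.712 in VAT, which limits its rho. For miR-455 the closest were miR-125b-5p with a rho of 0.89 (r = 0.88), miR-27a-2-3p with 0.85 (r = 0.61) and miR-125a-5p with 0.82 (r = 0.86). miR-27a-2-3p shares its reads with miR-27a-5p, and in 3 libraries only 1 of these entries was above 0. Zeros of that kind are not read as absence, so the rho of miR-27a-2-3p is uncertain. None of the miRNAs closest to miR-365 was among those closest to miR-193 or miR-455. With only 3 of 184 kept for each, an overlap was unlikely in any case, and nothing is read from its absence.

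Other miRNAs tied to brown and beige fat in mice or human cells were set beside these 7 entries. Of the list described as promoting brown or beige fat (miR-182, miR-203, miR-328, miR-378, miR-30b, miR-30c, miR-32, miR-196a, miR-129, miR-26a and miR-26b), 7 of the 11 numbers are in the table and 9 entries were tested, which hold 7 distinct sets of counts. In IMAT against VAT 4 of the 9 rose (3 distinct) and 0 fell, with a median log2 fold change of 0.51, against -0.60 over all entries and 7.65% of all entries called higher. In SAT against VAT 4 of the 9 rose (3 distinct) and 0 fell, with a median of 0.89, against -0.05 over all entries and 7.34% called higher. In IMAT against SAT 0 of the 9 passed in edgeR, where 6.73% of all entries passed, and the median was -0.31, against -0.43 over all entries. An unadjusted p under 0.05 was met by 0 of the 9, against 25.7% of all entries. DESeq2 called 0 of the 9, beside 9.48% of all entries called higher and 4.89% lower. In limma 6 of the 9 were lower in IMAT than in SAT, where 50.5% of all entries were called lower.

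The promoting entries that moved were miR-196a, of the Hox clusters, and the miR-203 forms, also known from skin. miR-196a averaged 83.7 ± 29.1 CPM in IMAT, 71.4 ± 17.0 in SAT and 1.35 ± 1.57 in VAT. Relative to VAT it rose in IMAT, with a log2 fold change of 5.90 ± 1.18 (adjusted p = 0.0037 in edgeR), and in SAT, with 5.67 ± 1.17 (adjusted p = 0.0056). miR-203a averaged 44.7 ± 23.1 CPM in IMAT, 55.5 ± 14.03 in SAT and 8.49 ± 2.61 in VAT. Its log2 fold change from VAT was 2.40 ± 0.45 for IMAT (adjusted p = 0.0024 in edgeR) and 2.71 ± 0.46 for SAT (adjusted p = 0.0016), though with library totals only the IMAT value was 1.08 and did not pass (edgeR adjusted p = 0.117). For miR-203b the values were 3.32 ± 0.89 for IMAT (adjusted p = 0.022 in edgeR) and 3.70 ± 0.91 for SAT (adjusted p = 0.018). The IMAT value of miR-203b kept its call in 17 of 26 alternatives. With library totals only, 1 of the 9 promoting entries was higher and 3 were lower in IMAT than in VAT, while 5.5% of all entries were called higher and 44% lower.

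Of the list described as restraining brown or beige fat (miR-133, miR-27, miR-155, miR-34a, miR-106b, miR-93, miR-125b, let-7i, miR-199a and miR-214), 8 of the 10 numbers are in the table and 17 entries were tested (13 distinct). In IMAT against VAT 3 of the 17 rose (2 distinct) and 1 fell, where 7.65% of all entries were called higher and 5.81% lower. The median log2 fold change of the list was 0.21, against -0.60 over all entries. In SAT against VAT 4 rose (3 distinct) and 0 fell, where 7.34% of all entries were called higher and 5.2% lower, with a median of 1.44, against -0.05 over all entries. These 4 depended on the scaling, since 1 of the 17 was called higher with median-ratio scaling (4.28% of all entries). In IMAT against SAT 2 rose (1 distinct) and 1 fell, where 3.67% of all entries were called higher and 3.06% lower, with a median of -0.58, against -0.43 over all entries. The counts moved with the scaling together with those of the whole table. With library totals only, 3 of the 17 were higher and 11 lower in IMAT than in VAT, beside 5.5% of all entries called higher and 44% lower. Scaling by non-muscle totals gave 6 higher and 0 lower, beside 17.4% and 1.83% of all entries.

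Among the restraining entries miR-133a, which targets Prdm16 in mice and is itself a muscle miRNA, had a log2 fold change of 7.92 ± 1.12 in IMAT against VAT (adjusted p = 0.00035 in edgeR) and of 4.58 ± 0.87 in IMAT against SAT (adjusted p = 0.0089). It is part of the muscle share of 65.5 to 89.6% in IMAT, and the part of muscle RNA in this difference was not tested. miR-27b, of a family that also targets Prdm16 in mice, rose by 1.65 ± 0.36 on the log2 scale in IMAT against VAT (adjusted p = 0.0063 in edgeR) and by 2.03 ± 0.37 in SAT against VAT (adjusted p = 0.0025). With library totals only, the IMAT value of miR-27b against VAT was 0.13 (edgeR adjusted p = 0.721), and its call was kept in 23 of 26 alternatives. miR-27c, of the same family, went the other way and was the entry that fell in IMAT against VAT. It averaged 515 ± 93.4 CPM in IMAT and 1199 ± 544 in VAT, with libraries that overlapped and a log2 fold change of -1.22 ± 0.33 (adjusted p = 0.022 in edgeR). That call was kept in 19 of 26 alternatives, and scaled by non-muscle totals the value was -0.27 (adjusted p = 0.663). miR-125b averaged 831 ± 382 CPM in IMAT, 3231 ± 895 in SAT and 1118 ± 406 in VAT. In IMAT against SAT it fell, with a log2 fold change of -1.96 ± 0.38 (adjusted p = 0.0089 in edgeR), and scaled by non-muscle totals that value was -0.97 and did not pass (adjusted p = 0.152). Between SAT and VAT the log2 fold change of miR-125b was 1.53 ± 0.41 (adjusted p = 0.028 in edgeR), a call kept in 17 of 26 alternatives, and that of miR-133a was 3.34 ± 0.90 (adjusted p = 0.028), kept in 10 of 25. With median-ratio scaling they stood at 1.12 and 2.66 and did not pass (adjusted p = 0.0573 and 0.0716).

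Of the 9 lists of miRNAs that mark other cell types, the muscle list stood apart in IMAT from both SAT and VAT. The other 8 were taken as shares of the counts outside muscle, with shared reads counted once in the list and in the total. They overlapped between IMAT and VAT, and 7 of them overlapped between IMAT and SAT. The exception was the pancreas list (6 entries, 3 distinct, all above 0 in every depot), which held 0.0154 to 0.0522% of the counts outside muscle in IMAT, 0.0043 to 0.00955% in SAT and 0.0222 to 0.0502% in VAT. It thus stood above SAT in IMAT, where miR-365 was lower. As a share of all counts, as deposited, it overlapped between these depots (0.00384 to 0.0195% in IMAT and 0.00921 to 0.0208% in SAT). Overlapping libraries do not mean equal levels. The median share outside muscle was 7.10% in IMAT and 3.04% in VAT for the endothelium list, which is the 1 miRNA miR-126. The share was 1.02% and 0.430% for the neuron list (miR-9, miR-128, miR-153 and miR-219), and 0.0249% and 0.0585% for gut and liver. Members of the neuron list were unequal in level, with mean TMM-scaled CPM of 1479 for miR-128-1-3p and 35.3 for miR-9a-3p. The log2 fold change of miR-9a-3p was -1.47 in IMAT against SAT and -1.26 in SAT against VAT. Neither passed (edgeR adjusted p = 0.086 and 0.124). Both values come from 1 fit and point the same way, so they add up in IMAT against VAT. In that comparison miR-9a-3p therefore fell furthest, opposite to the median share of its list, and these p-values do not cover it. The list share is not read as a level of neurons. Medians of stroma and smooth muscle, and of epithelia and skin, were also higher in IMAT than in VAT. Those of pancreas and of red and white blood cells were lower, where the red blood cell list rests on miR-144 alone (1 of its 3 numbers found). The miR-365 value scaled by non-muscle totals (-1.57 in IMAT against VAT) and its fold change after removing the muscle entries before TMM are both below 0 and past the threshold. Both settings change only the scaling and leave miR-365 reads from any cell type in place. The part of other cells in the miR-365 difference was not tested.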

How the data were processed

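Small RNAs of trout adipocytes were measured in 14 libraries. The authors deposited 1 table with unscaled, whole-number read counts for 256 named and 643 predicted entries. A second deposited column per library equals CPM (counts per 1000000 counts of the library) within 0.005, with a divisor by the authors that leaves out the table's first row, which was above 0 in 5 libraries. Trimmomatic 0.30 and edgeR 3.4.6 are listed, with no step given, per the submitters' processing notes. The aligner was not given in the sources used here, nor were the miRNA caller and the genome build. There were 2 columns of per-sample values that match no label and were not used. No sequence or coordinate is reported here. Replicate libraries differed by far more than sampling noise (lowest chi-square per degree of freedom 171), and none was joined.

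Counts were tested with edgeR 4.0.16 (R 4.3.3, quasi-likelihood test, TMM, all 14 libraries in 1 fit, two-sided) for entries above 0 in at least 4 libraries. P-values were adjusted over all tested entries with a threshold of 0.05. Entries above 0 together in 4 libraries or more were called linked if they reached 20 reads and differed in each by at most 2 reads or 10%, whichever is larger, which gave 52 sets of 121 entries. Ratios of reads had 0.5 added to each count and were compared by exact permutation tests over all arrangements of the libraries. The Clopper-Pearson intervals and Spearman rho came from scipy 1.17.1. The scripts were tested on simulated data. Alternatives were median-ratio scaling, library totals, totals without the muscle miRNAs (non-muscle totals), DESeq2 1.42.0, limma 3.58.1 on log2 of the deposited CPM plus 1 or 0.5, no filter, a stricter filter (10 counts), joined linked entries, only the compared depots, a replicate block and each library left out. Removing the muscle entries before TMM was added after seeing the data. The miRNAs and lists were chosen with earlier results of these data known. All entries of miR-193, miR-365 and miR-455 are named, with at most 4 per list and comparison by lowest adjusted p, and the 3 nearest miRNAs by Spearman rho.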

Additional observations from a re-analysis of the deposited data

How the results depend on the processing

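Of 327 entries, 44 differed in IMAT against VAT (25 higher, 19 lower), 41 in SAT against VAT (24 higher, 17 lower) and 22 in IMAT against SAT (12 higher, 10 lower). In IMAT against VAT the count was 162 with library totals (18 higher), 176 and 173 in limma with 1 and 0.5 added, 88 in DESeq2 (36 higher, 52 lower), 26 without a filter and 26 with only those depots, and 63 with non-muscle totals (57 higher, 6 lower). In IMAT against SAT it was 131 with library totals (7 higher), 174 and 172 in limma, 47 in DESeq2 (31 higher, 16 lower), 11 without a filter and 33 with non-muscle totals (29 higher, 4 lower). In SAT against VAT it was 63 in DESeq2 (24 higher, 39 lower), 17 without a filter and 39 with median-ratio scaling (14 higher, 25 lower). Leaving out 1 library gave 33 to 68 entries in IMAT against VAT (68 without IMAT 5 or VAT 4), 26 to 48 in SAT against VAT (26 without SAT 2 or SAT 3, 27 without VAT 1 or VAT 5) and 15 to 47 in IMAT against SAT (37 without IMAT 5, 47 without VAT 4).

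miR-365 kept its direction and call in both comparisons with IMAT under all alternatives, and with a library left out its log2 fold change was -2.84 to -1.76 against VAT and -2.64 to -1.90 against SAT. In SAT against VAT, where it had no call, it turned to 0.044 with non-muscle totals, 0.069 in both limma runs and 0.12 with the block, and ranged from -0.37 to 0.27 with a library left out. miR-193 turned in IMAT against VAT to -0.25 with library totals and to -0.31 and -0.32 in limma, and passed at 2.12 with non-muscle totals. In IMAT against SAT it turned to -1.09, -1.32 and -1.36 under those 3 settings and to -0.0069 with the block. miR-455 in IMAT against VAT passed at -1.56 with library totals and -1.54 and -1.55 in limma. It turned to 0.91 with non-muscle totals, 0.023 without a filter, 0.072 with the stricter filter, 0.17 with linked entries joined, 0.068 with only those depots and 0.0093 with the muscle entries removed before TMM. In IMAT against SAT it passed at -1.87 with library totals and -1.90 and -1.92 in limma, and turned to 0.51 with non-muscle totals. With a library left out it ranged from -0.27 to 0.17 against VAT and from -0.57 to 0.019 against SAT. ssa-miR-365-2-5p turned in IMAT against SAT to -0.15 with library totals and to -0.071 and -0.10 in limma, and ssa-miR-365-2-3p ranged from -1.02 to 0.24 in SAT against VAT with a library left out.

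The ratio of miR-365 to miR-193 ranged from -3.88 to -3.03 (IMAT against VAT), -2.86 to -2.02 (IMAT against SAT) and -1.42 to -0.74 (SAT against VAT) with a library left out. The log2 difference of the summed share outside muscle was -1.20 in IMAT against VAT (-1.31 with every entry as deposited, -1.56 to -0.77 with a library left out), -1.37 in IMAT against SAT (-1.33 as deposited) and 0.17 in SAT against VAT (-0.18 to 0.60). The exact permutation test gave adjusted p = 0.0357, 0.0238 and 0.794 in this order. With a library left out, IMAT against VAT passed in only 6 of 14 runs (exact test, adjusted p of 0.0268 to 0.129). IMAT against SAT passed in all 14.

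No pairing by replicate number was seen: over 13 same-numbered pairs the correlation of deviations was -0.24 to 0.19, with 3 over 0.1. Of the 14 libraries, 1 correlated best with its own number. This check, with few libraries per depot, cannot show whether a shared number marks the same fish. With the block, 28 entries differed in IMAT against VAT and 27 in SAT against VAT, the ratio was -3.31 (IMAT against VAT) and -2.46 (IMAT against SAT), and the summed share -1.07 and -1.37. With so few pairs the exact test of these blocked values cannot pass the threshold. The cause of the other changes was not tested. Depth limits miR-193, at 16 to 198 reads per library.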
